A study of Mus musculus with 6 samples.

Results

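Expression of 10 genes of the extracellular matrix was compared between mouse mammary tumors and sorted luminal mammary cells. The genes were the glycoproteins Fn1, Fbln1 and Fbln2, the proteoglycans Vcan, Bgn, Dcn, Lum and Fmod, and the matricellular genes Sparc and Postn. Members were the probe sets of the array whose annotation names 1 of these genes and no other. The rule found 12 probe sets among 23521 that name 1 gene, and they covered all 10 genes of 22180 measured. Bgn and Fmod had 2 probe sets each and the other 8 genes had 1.

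Fibronectin, the product of Fn1, is a secreted glycoprotein that cells assemble into fibrils through integrins, and on which other matrix proteins are laid down. Small leucine-rich proteoglycans such as decorin and biglycan bind collagen fibrils and growth factors, while the large proteoglycan versican binds hyaluronan and carries many chondroitin sulfate chains. In the mammary gland these proteins are made largely by fibroblasts and other stromal cells, and the stroma of carcinomas is known for deposits of fibronectin, versican and periostin.

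The tumor group held 3 mammary tumors, numbered 23, 24 and 25, from Trp53L/L;Brca1L/L females, taken several months after an adenovirus with Cre recombinase under a keratin 8 promoter (Ad-K8-Cre) had been injected into the mammary ducts. The wild-type group held YFP+ luminal cells from 3 females, mice 1, 2 and 4, which carried the Rosa26-Stop-YFP reporter and had received the same virus 10 to 14 days earlier. The labels call the tumors null for Trp53 and Brca1, describe sorting for the wild-type cells alone, and give no ages. Whether the 3 tumors came from different animals is not stated, and p-values would otherwise reflect some spread within an animal. Whether tumor cells were sorted is not stated either. In RNA of mixed cells, a change in the share of a cell type and a change in RNA per cell cannot be told apart.

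All levels below are log2 expression values made by RMA, the authors' background correction, normalization and summary of probes, with 1 value per probe set and array. Probe set medians lay between 3.25 and 3.56 on tumor arrays and between 3.51 and 3.59 on wild-type arrays. The background mark of each array was set at the 95th percentile of 1081 olfactory receptor genes, and it was 3.19 to 3.43 on tumor arrays and 3.69 to 3.86 on wild-type arrays. The luminal markers Krt8 and Krt18 measured 7.76 to 9.41 and 7.47 to 10.18 in tumors, against 10.31 to 11.12 and 10.58 to 11.57 in wild-type cells. Brca1, a targeted gene, measured 3.74 to 4.10 on the arrays labelled tumor and 2.81 to 2.99 in wild-type cells. It was called higher in tumors, by 0.94 ± 0.18 (SE, limma, adjusted p of 0.044), while every wild-type value lay under its background mark. Where its probes lie relative to the deletion is not known here, so this level is no check of the labels. Trp53 had no probe set naming it alone and was not analysed here.

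Of the 10 matrix genes, Fn1, Fbln2, Bgn and Vcan rose in the tumors, by 4.15-fold to 10.5-fold, and none fell past the threshold. Over all 22180 genes, limma called 3.91% at an adjusted p under 0.05, 2.52% higher and 1.39% lower (559 and 308 genes), and after centring on housekeeping genes 548 higher and 6975 lower. The tumors lay above every wild-type array for 6 of the 10 genes, the called genes with Postn and Sparc, where 14.0% of all genes did so. They lay below every wild-type array for Dcn, as for 22.4% of all genes, and 36.4% of all genes did not overlap in either direction. Lum, Fmod and Fbln1 overlapped between the groups. The median difference of the 10 genes was 1.67 log2 units, against -0.12 over all genes. Taken for each tumor alone, the 10 genes had a median difference from wild type of 1.63 (tumor 23), 1.94 (tumor 24) and 1.32 (tumor 25). The plot of levels by array shows each of these genes.

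**Figure D1:**
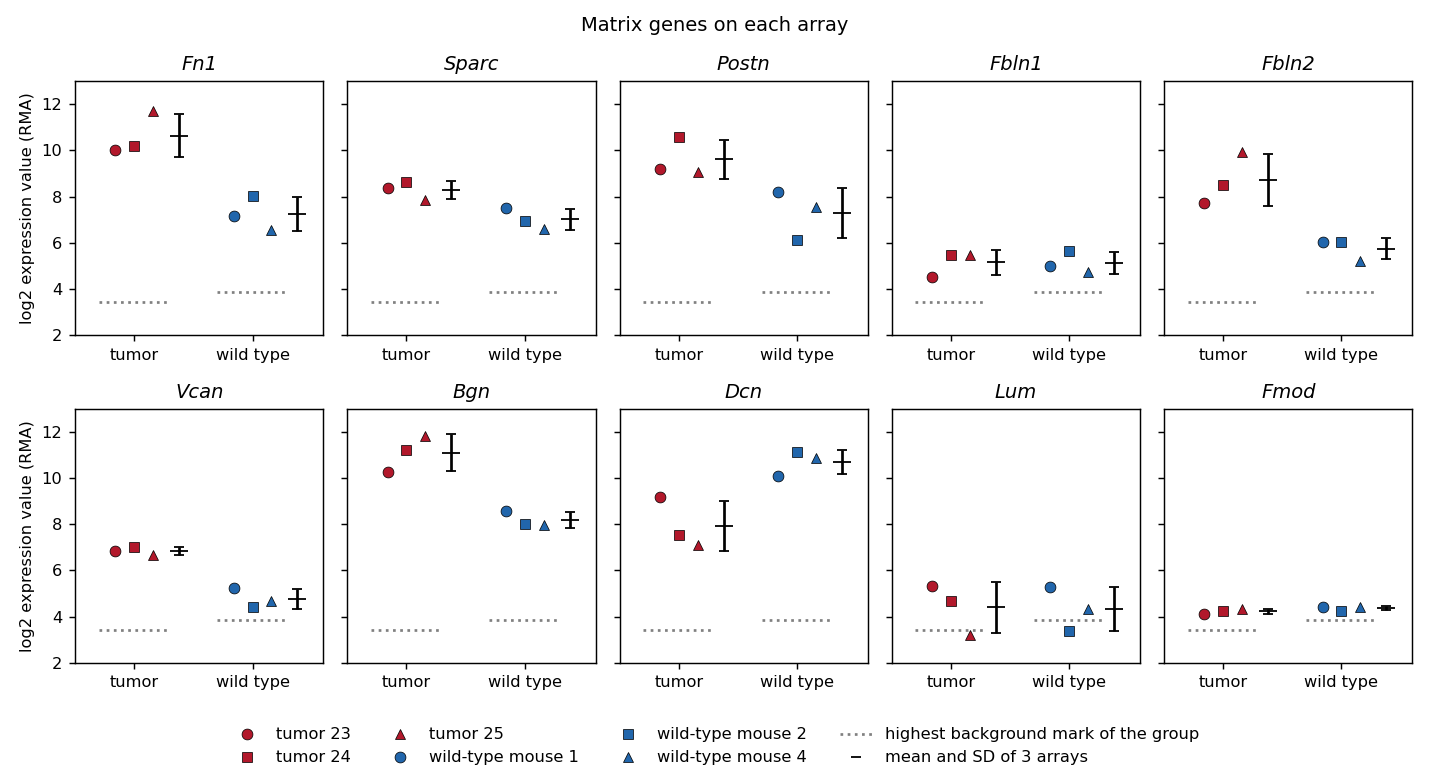
Log2 expression values (RMA, vertical axis) of the 10 genes on each array, tumors in red and wild-type cells in blue, with the mean and SD of 3 arrays and a dotted line at the highest background mark of the group; for Bgn and Fmod the brighter probe set is shown. Tumors lie above all wild-type arrays for Fn1, Sparc, Postn, Fbln2, Vcan and Bgn and below them for Dcn.

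Fn1 had the largest rise of the 10 genes. It measured 10.04, 10.17 and 11.70 in tumors 23, 24 and 25, against 7.17, 8.03 and 6.53 in wild-type mice 1, 2 and 4. Tumor 25 was the highest, and the lowest tumor lay 2.00 above the highest wild-type array. The difference of 3.39 ± 0.56 log2 units (SE, limma, adjusted p of 0.033, n = 3 each) corresponds to 10.5-fold, with a 95% interval of 4.17-fold to 26.6-fold. It ranked 31st from the top among the differences of 22180 genes.

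The fibulins, secreted glycoproteins that link elastic fibres and basement membranes, split between a called and an uncalled gene. Fbln2 measured 7.71, 8.49 and 9.91 in tumors 23, 24 and 25, against 6.01, 6.01 and 5.21 in wild-type mice 1, 2 and 4, where the first pair of arrays held the same deposited value. The groups stood 1.70 apart at their nearest arrays, and tumor 25 was again the highest. Fbln2 rose by 2.96 ± 0.56 (SE, limma, adjusted p of 0.044), or 7.78-fold (95% interval 3.04 to 19.9). Fbln1 measured 4.53, 5.47 and 5.45 in tumors 23, 24 and 25, against 4.97, 5.65 and 4.75 in wild-type mice 1, 2 and 4. Both groups spanned nearly the same levels, and the difference of 0.03 had a 95% interval of -0.82 to 0.88 (limma, adjusted p of 0.96), so changes of up to 1.83-fold upward lie within it.

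Versican, the hyaluronan-binding proteoglycan encoded by Vcan, showed the smallest spread between tumors among the genes that rose. It measured 6.82, 7.02 and 6.65 in tumors 23, 24 and 25, against 5.25, 4.42 and 4.66 in wild-type mice 1, 2 and 4. The tumors lay within 0.37 of each other and 1.40 above the highest wild-type array. The rise was 2.05 ± 0.26 (SE, limma, adjusted p of 0.018), or 4.15-fold (95% interval 2.71 to 6.36).

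Of the 4 small leucine-rich proteoglycans, only Bgn passed the test. It encodes biglycan, whose core protein carries chondroitin or dermatan sulfate and which can signal through innate immune receptors. It measured 10.25, 11.20 and 11.84 in tumors 23, 24 and 25, against 8.56, 7.99 and 7.94 in wild-type mice 1, 2 and 4. The lowest tumor stood 1.69 above the highest wild-type array. Bgn rose by 2.93 ± 0.42 (SE, limma, adjusted p of 0.024), or 7.64-fold (95% interval 3.82 to 15.3). A second, dimmer Bgn probe set measured 5.34, 5.37 and 5.58 in the tumors, against 5.68, 5.52 and 5.76 in the wild-type mice. There the groups overlapped and the difference was -0.22 ± 0.17 (SE, limma over probe sets, adjusted p of 0.41), so the probe sets of Bgn disagree, and their mean gave a rise of 1.36 (limma, adjusted p of 0.048).

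Dcn, which encodes decorin, the closest relative of biglycan and a binder of collagen and of TGF-beta, had lower levels in the tumors. It measured 9.16, 7.52 and 7.11 in tumors 23, 24 and 25, against 10.10, 11.11 and 10.87 in wild-type mice 1, 2 and 4. All 3 tumors lay below all 3 wild-type arrays, by 0.94 at the nearest arrays, and tumor 23 was the tumor closest to wild type. The difference was -2.76 ± 0.56 (SE, limma, adjusted p of 0.052), which did not pass, with a 95% interval from -4.11 to -1.41. It passed downward after quantile normalization again (limma, adjusted p of 0.046), after cyclic loess (0.043), after centring on housekeeping genes (0.0037), with a trended robust prior (0.032), with either filter on dim genes (0.011 and 0.019) and without tumor 23 (0.038). It did not pass with array weights (limma, adjusted p of 0.058), with averaged probe sets (0.052) or with probe sets tested singly (0.053). Nor did it pass without tumor 24 (0.078), tumor 25 (0.11), mouse 1 (0.11), mouse 2 (0.14) or mouse 4 (0.14). With all arrays, it ranked 89th from the bottom among the differences of 22180 genes. Because a common scaling error of an array cancels in the ratio of 2 genes on it, the change of the Bgn to Dcn ratio was also taken. Against the wild-type mean it was 3.62 log2 units in tumor 23, 6.21 in tumor 24 and 7.25 in tumor 25 with the brighter Bgn probe set, and 1.22, 2.89 and 3.51 with the dimmer one. With either probe set the groups did not overlap, although the dimmer one averaged 5.43 in tumors and 5.65 in wild-type cells. Dcn alone already separated the groups, and so did the ratio to Dcn of each other gene of the 10. Fbln1, Lum and Fmod, which overlapped by themselves, had mean changes of this ratio of 2.79, 2.84 and 2.63. The separation of the ratio therefore says nothing about Bgn in particular.

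Lum, the gene of lumican, a regulator of collagen fibril spacing, lies next to Dcn on chromosome 10 in the RefSeq order of protein-coding genes. It measured 5.33, 4.67 and 3.20 in tumors 23, 24 and 25, against 5.26, 3.38 and 4.34 in wild-type mice 1, 2 and 4. One array of each group, tumor 25 and wild-type mouse 2, lay under its background mark, and the groups overlapped over most of their ranges. The difference was 0.07 ± 0.67 (SE, limma, adjusted p of 0.95), with a 95% interval of -1.52 to 1.67.

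Fmod encodes fibromodulin, a relative of lumican that also binds fibrillar collagen. Its brighter probe set measured 4.12, 4.25 and 4.33 in tumors 23, 24 and 25, against 4.41, 4.25 and 4.41 in wild-type mice 1, 2 and 4, a difference of -0.13 ± 0.16 (SE, limma, adjusted p of 0.61). Its dimmer probe set measured 3.06, 2.93 and 2.81 in the tumors, against 3.71, 4.31 and 3.75 in the wild-type mice. All 3 tumor values and 1 wild-type value of the dimmer probe set lay under the background mark, and the tumors lay below the wild-type arrays. That difference of -0.99 ± 0.22 (SE) did not pass either (limma over probe sets, adjusted p of 0.063). Prelp, the neighbour of Fmod in RefSeq order and of the same family, measured 6.10 on average in tumors and 6.20 in wild-type cells.

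The matricellular genes were both higher in every tumor without passing the test. Sparc encodes osteonectin, a collagen-binding protein of remodelling tissue. It measured 8.38, 8.64 and 7.87 in tumors 23, 24 and 25, against 7.49, 6.96 and 6.59 in wild-type mice 1, 2 and 4, and the groups were 0.38 apart at their nearest arrays. The difference was 1.29 ± 0.31 (SE, limma, adjusted p of 0.072), or 2.44-fold (95% interval 1.46 to 4.06). Postn encodes periostin, an integrin ligand of fibroblast-rich stroma. It measured 9.18, 10.59 and 9.06 in tumors 23, 24 and 25, against 8.22, 6.12 and 7.53 in wild-type mice 1, 2 and 4. Its wild-type arrays spread over 2.10 log2 units and its tumors over 1.53, more than the 0.84 between the groups. The difference of 2.32 ± 0.63 (SE) had an adjusted p of 0.094 in limma. Without the genes of a mean under 5, or under the median over genes, it was 0.029 or 0.042. These filters called 915 of 7726 and 1119 of 11090 genes.

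**Figure D2:**
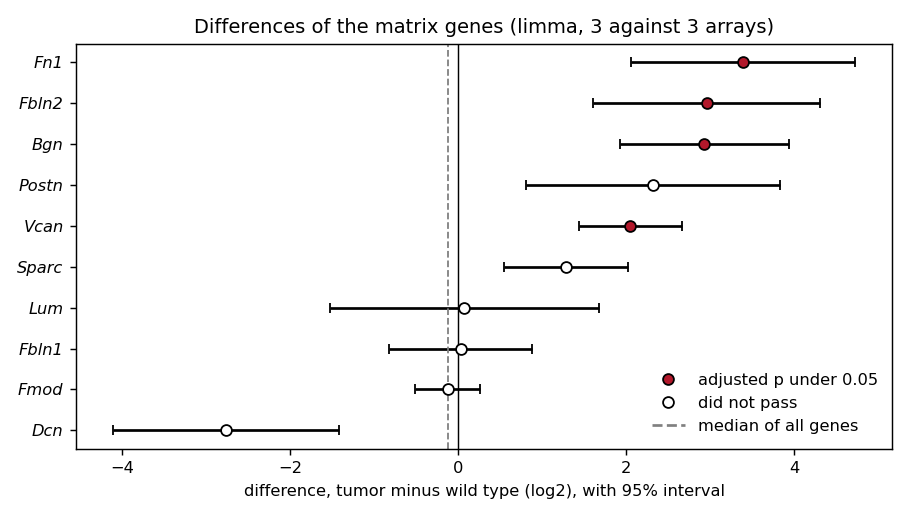
Differences of the 10 genes, tumor minus wild type, in log2 units (horizontal axis) with 95% intervals from limma over 3 tumor and 3 wild-type arrays; filled points have an adjusted p under 0.05 and the dashed line is the median of all genes at -0.12. Fn1, Fbln2, Bgn and Vcan passed, and the interval of Dcn, from -4.11 to -1.41, lies on the lower side.

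Leaving out single arrays ended each of the 4 calls at least once, and an array fewer also leaves fewer degrees of freedom. Vcan lost its call without tumor 23 (limma, adjusted p of 0.059), without wild-type mouse 2 (0.056) and without mouse 4 (0.081). Bgn lost it without mouse 1 (0.066), mouse 2 (0.080) or mouse 4 (0.094). Fn1 kept it only without tumor 24 (0.037), and lost it without tumor 23 (0.066), tumor 25 (0.0503), mouse 1 (0.10), mouse 2 (0.065) or mouse 4 (0.11). Fbln2 did not pass in any of the 6 sets, with adjusted p from 0.052 without tumor 25 to 0.13 without mouse 4 (0.056 without tumor 23, 0.058 without tumor 24, 0.11 without mouse 1 and 0.11 without mouse 2). Over the 6 sets the difference of Fn1 ranged from 2.86 to 3.79, Fbln2 from 2.35 to 3.45, Bgn from 2.56 to 3.36, Vcan from 1.87 to 2.29 and Dcn from -3.37 to -2.35.

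The tumors differed among themselves in which matrix genes were high. Fn1, Bgn and Fbln2 were highest in tumor 25, at 4.46, 3.67 and 4.17 above the wild-type mean, and lowest in tumor 23, at 2.79, 2.09 and 1.97. Postn, Sparc and Vcan were highest in tumor 24, at 3.30, 1.63 and 2.24 above the wild-type mean, and lowest in tumor 25. Dcn and Lum were highest in tumor 23 and lowest in tumor 25, where their differences from the wild-type mean were -3.58 and -1.13. With 1 array per tumor, these orders have no replicate check.

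**Figure D3:**
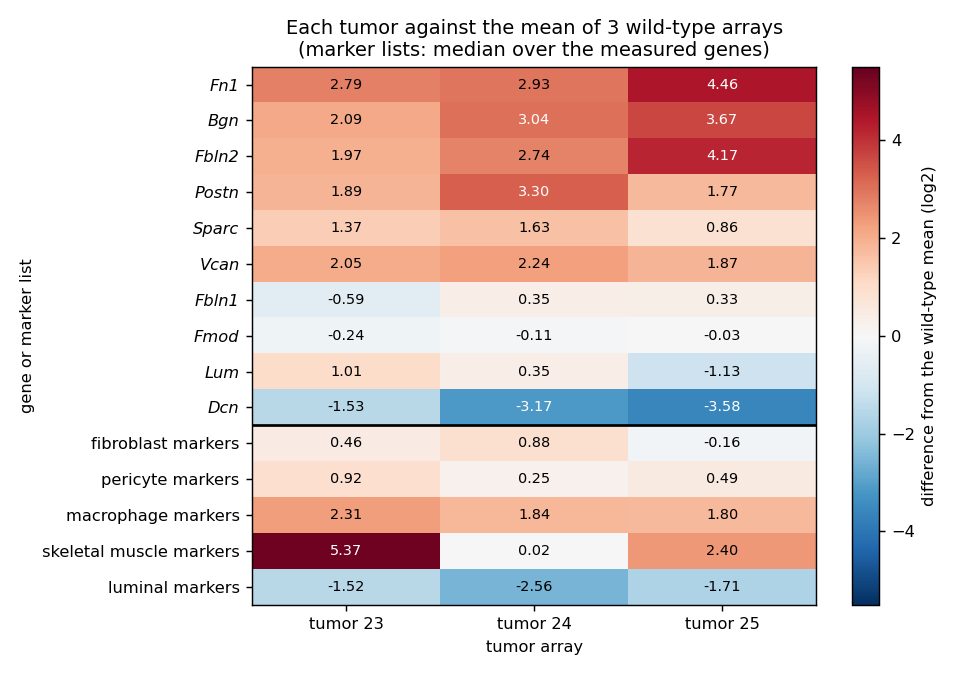
Differences of each tumor array (columns) from the mean of 3 wild-type arrays in log2 units, for the 10 genes and, under the line, for the median of 5 marker lists (rows). Fn1, Bgn and Fbln2 are highest in tumor 25, Dcn and Lum are highest in tumor 23, and skeletal muscle markers are high in tumor 23 and at 0.02 in tumor 24.

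Markers of other cells moved with some of these genes, and their part in the results was not tested. None of 10 fibroblast markers passed limma's test, with a list mean of 4.29 to 5.42 in tumors and 4.20 to 4.83 in wild-type cells. The fibroblast list median differed from wild type by 0.46 (tumor 23), 0.88 (tumor 24) and -0.16 (tumor 25). Postn, Sparc and Vcan had the same order of tumors as this median, while Fn1, Bgn and Fbln2 were highest in tumor 25. The defining markers differed in order between tumors. Col1a1 measured 7.22, 8.74 and 4.98 in tumors 23, 24 and 25, against 6.13, 6.42 and 4.86 in wild-type mice 1, 2 and 4, and Col1a2 and Col3a1 likewise were highest in tumor 24 and lowest in tumor 25. Pdgfra, the receptor gene that marks fibroblasts, measured 5.47, 5.27 and 6.97 in tumors 23, 24 and 25, against 4.40, 3.53 and 4.42 in wild-type mice 1, 2 and 4. It was highest in tumor 25 and lay above every wild-type array in all 3 tumors (limma, adjusted p of 0.098). Dpt, a matrix gene of fibroblasts, measured 5.40, 4.45 and 3.75 in tumors 23, 24 and 25, against 7.35, 8.14 and 5.0 in wild-type mice 1, 2 and 4. Among wild-type mice, mouse 2, with the highest Dcn, was highest for Dpt, Pi16, Col1a1 and Col15a1 and lowest for Pdgfra, Col3a1, Fap and Twist2. Twist2 lay under the background mark on all 6 arrays. Of 7 pericyte markers, Pdgfrb alone passed, with a rise of 2.56 ± 0.43 (SE, limma, adjusted p of 0.035). Only 1 of its wild-type values lay above the background mark. Mcam and Abcc9 also had all tumors above all wild-type arrays, and Notch3 had them below. The pericyte list mean was 4.98 to 5.49 in tumors and 4.46 to 4.63 in wild-type cells.

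Of 8 macrophage markers 6 passed the test, all of them higher. The list mean was 6.29 to 7.02 in tumors and 3.93 to 4.59 in wild-type cells, highest in tumor 23 and lowest in tumor 25. Of 8 skeletal muscle markers none passed, with list means of 8.46, 3.29 and 5.76 in tumors 23, 24 and 25, against a range of 3.17 to 3.37 in wild-type cells. None of 6 endothelial markers and none of 4 T cell markers passed, with list means of 4.54 to 5.43 and 3.81 to 4.46 in tumors, against 4.43 to 5.27 and 3.70 to 4.76 in wild-type cells. None of 6 adipocyte markers passed, with a list mean of 3.47 to 3.75 in tumors and 4.05 to 4.52 in wild-type cells, and Adipoq, Lep, Cidec and Retn lay under the background mark on all 6 arrays. Fabp4, a fatty acid binding protein of adipocytes and endothelium, measured 8.22, 7.08 and 6.30 in tumors 23, 24 and 25, against 10.75, 10.84 and 8.61 in wild-type mice 1, 2 and 4. Its groups did not overlap, and it shared with Dcn the order of the tumors and the highest wild-type array, with a difference of -2.87 (limma, adjusted p of 0.082). The lowest wild-type array differed, being mouse 1 for Dcn and mouse 4 for Fabp4. Of 8 luminal markers Esr1, Foxa1 and Cd24a fell, with a list mean of 6.75 to 7.40 in tumors and 8.87 to 9.59 in wild-type cells. Of 7 basal and myoepithelial markers Myh11 alone passed and fell, and the list mean was 5.40 to 6.14 in tumors and 5.45 to 5.74 in wild-type cells.

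The stretches upstream of the genes that rose are shown because these genes rose in the same tumors. RefSeq's promoter table (GRCm38.p6) held 9 windows of 7 of the 10 genes, all but Fn1, Dcn and Lum. Each line below gives the 250 bases before the annotated start, 5′ to 3′ in the sense of the gene, for the called genes with a window. Capitals mark an E-box (CANNTG, which reads the same on both strands). The windows are chrX:73483351-73483600 on the plus strand for Bgn, chr6:91212514-91212763 on the plus strand for Fbln2 and chr13:89742513-89742762 on the minus strand for Vcan.
Bgn: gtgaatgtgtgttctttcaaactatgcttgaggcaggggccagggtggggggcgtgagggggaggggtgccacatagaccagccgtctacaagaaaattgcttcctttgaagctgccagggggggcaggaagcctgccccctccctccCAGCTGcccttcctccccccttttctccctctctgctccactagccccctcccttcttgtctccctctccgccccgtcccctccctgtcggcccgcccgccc
Fbln2: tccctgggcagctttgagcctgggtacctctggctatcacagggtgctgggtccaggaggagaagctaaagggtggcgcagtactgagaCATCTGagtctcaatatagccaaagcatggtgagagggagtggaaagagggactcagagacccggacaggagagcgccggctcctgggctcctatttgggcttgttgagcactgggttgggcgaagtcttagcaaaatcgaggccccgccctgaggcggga
Vcan: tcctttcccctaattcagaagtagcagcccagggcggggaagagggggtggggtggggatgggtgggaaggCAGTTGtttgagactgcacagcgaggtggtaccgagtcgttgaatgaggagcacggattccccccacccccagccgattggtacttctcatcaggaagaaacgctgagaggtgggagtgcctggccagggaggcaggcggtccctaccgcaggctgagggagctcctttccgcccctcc
The E-box begins 102 bases before the start in Bgn, 161 in Fbln2 and 179 in Vcan. An E-box was present in 7 of the 9 member windows and in 66.2% of all 32851 windows of this length. GC content was 64.4% in Bgn, 58.8% in Fbln2 and 62.4% in Vcan, against a median of 52.4% over all windows. In genes that were not called it was 46.4% and 62.4% in the windows of Fbln1 and 40.4% and 52.0% in those of Postn. Sparc had 54.0% and Fmod 51.2%.

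Postn is shown for a core promoter motif. Its window at chr3:54360857-54361106 on the plus strand holds a TATA motif (TATAAA), marked in capitals, that begins 26 bases before the start.
Postn: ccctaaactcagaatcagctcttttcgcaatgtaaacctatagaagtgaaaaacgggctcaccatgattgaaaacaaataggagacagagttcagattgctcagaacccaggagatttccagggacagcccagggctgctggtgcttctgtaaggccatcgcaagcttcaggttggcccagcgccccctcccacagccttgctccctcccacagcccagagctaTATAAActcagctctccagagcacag
This motif, searched on both strands, was found in 1 of the 9 member windows and in 12.4% of all windows. The letters of a SMAD motif (CAGACA) were found in 3 member windows, 1 of Sparc and both of Fbln1, whose windows overlap and share the match, and in 17.1% of all windows. The letters of an AP-1 motif (TGANTCA) and of a TEAD motif (GGAATG) were not in the 9 windows, and were in 6.75% and 12.6% of all windows. These matches describe letters, not binding.

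The plot of related lists shows the relatives of the 10 genes. Of 94 measured, 5 were called, or 5.32%, against 3.91% of all genes. None of 11 other small leucine-rich proteoglycans was called, with a median difference of -0.09. Of these, Omd, Kera, Epyc, Nyx and Ecm2 lay under the background mark on all 6 arrays. Aspn had all tumors above all wild-type arrays, by 2.70 on average (limma, adjusted p of 0.095), with wild-type values under the mark. Podn and Ecm2 also had them above, by 0.83 and 0.47 on average, while Optc, Epyc and Nyx had them below. That made 3 genes above and 3 below of 11, beside 14.0% and 22.4% of all genes. Under the median filter or without tumor 25, 1 gene of this list was called higher. After housekeeping centring, 1 was called higher and 2 lower. None of 10 further fibulins and elastic fibre genes was called either, with a median of 0.29. Of 21 other matricellular genes none was called, while 10 had all tumors above all wild-type arrays and 3 had them below, with a median of 0.38, beside 14.0% above and 22.4% below over all genes. These calls depended on the processing: 4 of the matricellular genes were called higher and 1 lower among genes with a mean of at least 5, 3 higher under the median filter, 4 higher and 3 lower after housekeeping centring, 2 higher with a trended robust prior and 1 higher with array weights or without tumor 25. Over all genes, 915 of 7726 were called with a mean of at least 5, and 1119 of 11090 under the median filter. Without a filter the count was 867 of 22180. The largest matricellular differences were 3.42 for Sparcl1, 2.83 for Tnc and 2.81 for Tgfbi (limma, adjusted p of 0.091, 0.071 and 0.065). On the lower side the largest was -1.58 for Ccn1 (0.094). None of 4 basement membrane genes passed, with a median of 0.65. Tsku, Efemp2, Fbn1 and Spp1 were listed but not analysed here.

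The enzymes that build chondroitin and dermatan sulfate chains, which versican, biglycan and decorin carry, held 2 called genes of 20 measured, both higher, with a list median of 0.45. Dse, the epimerase that turns chondroitin sulfate into dermatan sulfate, measured 6.69, 6.18 and 6.11 in tumors 23, 24 and 25, against 4.26, 3.95 and 4.43 in wild-type mice 1, 2 and 4. It rose by 2.12 ± 0.23 (SE, limma, adjusted p of 0.015), and lost its call without mouse 1 (0.057) and without mouse 4 (0.063). Chst12, a sulfotransferase of chondroitin and dermatan chains, rose by 1.53 ± 0.19 (SE, limma, adjusted p of 0.018). It measured 5.10 to 5.58 in tumors and 3.69 to 3.92 in wild-type cells. Wild-type mouse 1 lay under its background mark (3.69 against 3.76), and mice 2 and 4 lay little above theirs. Chst12 did not pass without tumor 23 (0.059) or without wild-type mouse 1 (0.066), 2 (0.057) or 4 (0.075).

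Among 9 genes listed for fibronectin receptors, whose binding was not measured, Itgb5 rose and Itgav fell, and the list median was 0.02. Itgav, the integrin alpha subunit that pairs with several beta subunits, measured 6.01, 6.95 and 6.74 in tumors 23, 24 and 25, against 8.70, 8.24 and 8.76 in wild-type mice 1, 2 and 4. Its difference was -2.00 ± 0.30 (SE, limma, adjusted p of 0.026), and of the sets that left out an array it passed only without tumor 24. A second Itgav probe set lay under the background mark on all 6 arrays, and averaging both gave -1.22 (limma, adjusted p of 0.026). Itgb5, a beta subunit that pairs with Itgav, measured 7.71 to 8.16 in tumors and 6.54 to 6.99 in wild-type cells, a rise of 1.21 ± 0.21 (SE, limma, adjusted p of 0.038). That call was lost after quantile normalization again (0.069), cyclic loess (0.076) and centring on housekeeping genes (0.18), with a trended robust prior (0.067), and in all 6 sets with an array left out, where adjusted p ranged from 0.053 to 0.11. Of 19 hyalectans, hyaluronan partners and versican-cleaving proteases, the hyaluronan synthase gene Has1 fell, with 2.65 to 3.10 in tumors, under the background mark, and 4.04 to 4.95 in wild-type cells. It had an adjusted p of 0.037 in limma and of 0.055 to 0.11 in the 6 sets with an array left out. The list median was 0.16.

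**Figure D4:**
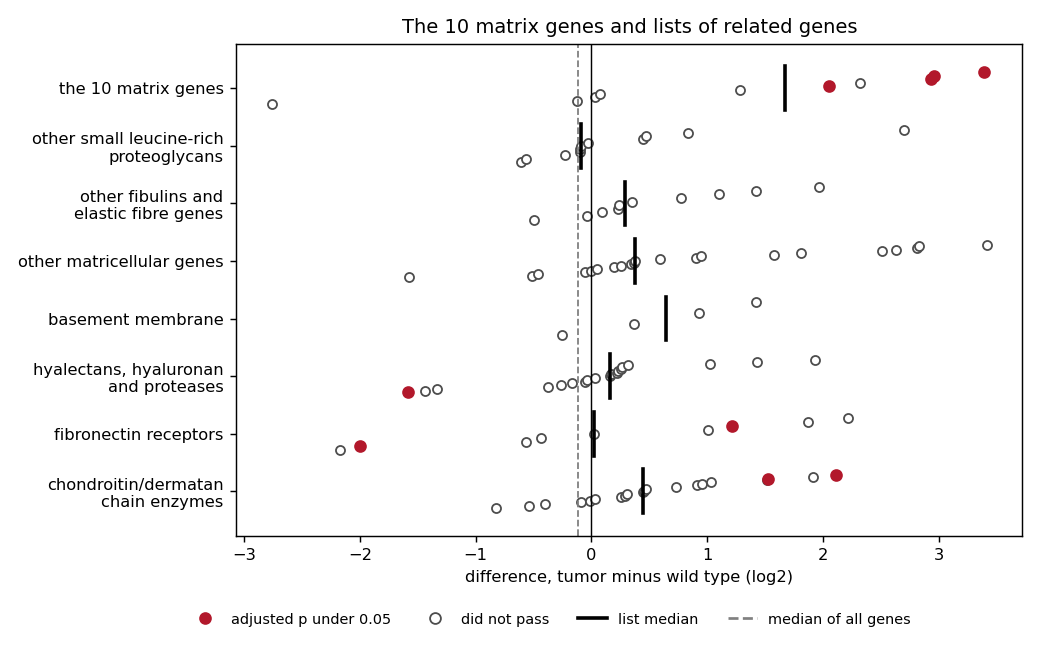
Differences, tumor minus wild type, in log2 units (horizontal axis) for each measured gene of the 10 matrix genes and of 7 related lists (rows), with filled points at an adjusted p under 0.05, a bar at each list median and a dashed line at the median of all genes. The median of the 10 genes is 1.67, and the lists of related genes have medians from -0.09 to 0.65. These lists include genes under the background mark on every array. Single relatives that did not pass lay as high as called members, such as Sparcl1 at 3.42, and others lay below 0.

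Likeness of profile was measured as the root mean square difference, in log2 units over the 6 arrays, between profiles centred on their own means, among genes with a mean of at least 5. The genes share the contrast between the groups, so closeness here is a description. Among the 10, the closest pairs were Bgn with Fbln2 (0.33) and Fn1 with Fbln2 (0.40), and the farthest was Fn1 with Dcn (3.29). The profile nearest to Bgn was that of Ncam1, a neural cell adhesion gene, at 0.22, and the one nearest to Fbln2 was Lama4, a laminin chain of vessels, at 0.31. Next came Adgra2, an adhesion receptor gene, for Bgn (0.25) and Bgn itself for Fbln2. For Fn1, Fbln2 came first and Kirrel second (0.44). Nearest to Vcan were Timm9, of mitochondrial import, at 0.11, and Tubgcp5, of the gamma-tubulin complex, at 0.17. Nearest to Postn were Epb41l2, a cytoskeletal adaptor, at 0.25, and Pip4k2a, a lipid kinase, at 0.28. Dcn had as nearest profiles Ceacam10 (0.30) and Pdk4, a kinase that inhibits pyruvate dehydrogenase (0.32), both with lower means in tumors. For Sparc they were Zscan26 and Snapin (both 0.16), for Lum Ypel2 and Snhg6 (both 0.33), for Fbln1 Ubr3 (0.10) and Arid2 (0.12), and for Fmod, whose profile was flat, Gm2a (0.068) and Zbtb33 (0.070).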

How the data were processed

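The authors deposited log2 values for each probe set on each array, made, per the submitters' processing notes, with RMA and oligo, versions of which were not given in the sources used here. This summary compresses differences of dim genes. Per the labels' protocols, RNA was amplified with a NuGEN kit. No scanner files were used, so no batch could be tested, and precision is limited by 3 arrays per group. Of 41345 probe sets, 23521 named 1 gene, 1814 several and 16010 none in the platform annotation, and 23328 of the 23521 matched RefSeq (GRCm38.p6) by Entrez identifier. The probe set with the highest mean stood for each of 22180 genes. The groups were compared in limma 3.58.1 (R 4.3.3; lmFit, eBayes), two-sided, without covariates or filter, with Benjamini-Hochberg adjustment over all genes and a threshold of 0.05. An exact permutation test of 3 against 3 cannot go below 0.10 and was not run. The fit was tested on simulated data first. Members, lists, alternatives and named genes (all 10 members, the 3 largest called differences of each list, and the 2 nearest profiles) were chosen with earlier results of these data known. The alternatives were other normalizations, filters, probe set rules and priors, array weights, and leaving out each array. Relatives singled out otherwise were chosen after their values were seen. These were Prelp, Aspn, Sparcl1, Tnc, Tgfbi, Ccn1, relatives named only for their background or overlap, and marker genes. No array column was left unmapped.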

Additional observations from a re-analysis of the deposited data

How the results depend on the processing

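Over 15 alternatives, Fn1, Fbln2, Bgn, Vcan, Postn and Sparc were higher and Dcn lower in tumors throughout. The 4 rises became 3 after quantile normalization again, where Fbln2 had an adjusted p of 0.0503 in limma, and 5 with either filter on dim genes, where Postn passed. With an array left out, 0 to 3 genes were called higher and 0 to 1 lower. One gene, Dcn, was called lower in place of 0 under both filters on dim genes, a further quantile normalization, housekeeping centring, cyclic loess and a trended robust prior. The median difference of 1.67 was 1.32 when the probe sets of a gene were averaged, 2.19 with a mean of at least 5, which left out Lum and Fmod, and 1.05 after housekeeping centring, which moved the median of all genes to -0.74; it was 1.47 to 1.91 with an array left out.

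Fbln1 and Lum, near 0, changed sign without passing: Fbln1 to -0.15 when quantile normalized again, to -0.59 under housekeeping centring and to -0.094 under cyclic loess, and Lum to -0.55 under housekeeping centring and to -0.080 with array weights. With an array left out, Fbln1 ranged from -0.16 to 0.34 (-0.13 without tumor 24, -0.12 without tumor 25, -0.05 without mouse 1) and Lum from -0.40 to 0.68 (-0.39 without tumor 23, -0.06 without tumor 24). Among the 94 relatives the calls of 3 higher and 2 lower were 9 and 2 of the 37 left by a minimum mean of 5, 10 and 3 of the 55 left by the median filter, 11 and 16 after housekeeping centring, 2 and 3 after a further quantile normalization or cyclic loess, 6 and 4 with a trended robust prior or array weights, and 0 to 5 and 0 to 2 with an array left out. Calls over all 22180 genes numbered 867 (308 lower), 7523 after housekeeping centring (6975 lower), 1324 with array weights and 72 to 1200 with an array left out. They were 1017 with a trended robust prior. The filters on dim genes also changed the share called over all genes. With a minimum mean of 5 it was 915 of 7726 (266 lower), and under the median filter 1119 of 11090 (324 lower). No paired analysis was possible because the groups share no replicate numbers.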
